A study of Canis lupus familiaris with 33 samples.

Results

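The genes described here act at the mitotic spindle, the kinetochore and the mitotic checkpoint. The list held 58 genes, chosen by name for these roles and with earlier results of these data known. Counts of its members below therefore describe the list and are no independent test of it. A gene was taken as measured where at least 1 probeset of the Affymetrix Canine Genome 2.0 array carried its symbol alone in the platform annotation. This held for 52 of the 58, with 106 probesets between them, out of 15115 genes measured in all. CCNB1, BUB1, MAD2L1, CENPE, KIF20A and MKI67 had no such probeset and were not analysed here.

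RNA from 33 canine lymph nodes was compared: 16 nodes of treatment naïve diffuse large B-cell lymphoma (DLBCL), 7 of relapsed DLBCL and 10 healthy nodes. DLBCL is an aggressive tumour of mature B cells. The naïve dogs had received no chemotherapy, and the relapsed dogs had last been treated 13 to 672 days before the biopsy, with CHOP (cyclophosphamide, doxorubicin, vincristine and prednisone) in 4 of 7, followed in sample 18 by CCNU with L-asparaginase and prednisone. Of the other relapsed dogs, sample 4 had a protocol labelled only GS, sample 9 doxorubicin with prednisone and then CCNU, L-asparaginase and prednisone, and sample 12 doxorubicin, Cytoxan and prednisone. Dogs with DLBCL were 2.7 to 13.3 years old. Healthy nodes came from dogs euthanised for conditions other than lymphoma, whose age, sex and breed the labels do not give. By case number, 4 of the healthy arrays came from 1 animal (healthy dog 1), and DLBCL samples 11 (naïve) and 12 (relapsed) came from the same dog. Arrays of one dog were averaged, which left 7 healthy and 22 DLBCL dogs, or 16 naïve and 7 relapsed dogs where these were separated, with the shared dog in both.

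Some features of the nodes are given first, because they differed between groups or between dogs. The RNA integrity number (RIN, a score of how intact the RNA is) was 8.9 to 10 in DLBCL dogs and 5.8 to 7.7 in healthy dogs other than dog 1, whose mean was 9.15. T-cell markers were lower in DLBCL: 11 of 13 fell, and their mean log2 level was 7.25 to 9.74 in DLBCL against 10.25 to 11.40 in healthy dogs. Of 7 germinal centre B-cell markers 3 fell, and of 11 macrophage markers 3 fell. Of 10 B-cell markers 3 rose and none fell, and of 11 stroma markers 1 rose and 1 fell. Over all genes 19.9% rose and 14.9% fell at the same adjusted p under 0.05. The mean of 10 B-cell markers was 7.90 in DLBCL sample 5 and at least 10.50 in every other tumour, against 9.76 to 10.57 in healthy dogs. In whole tissue, fewer cells of a type and less RNA per cell cannot be told apart. Whether these differences have a part in the results was not tested.

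When a cell divides, microtubules of the spindle attach to the kinetochore, a protein plate built on the centromere of each chromosome. The spindle checkpoint holds the cell in metaphase until every kinetochore is attached, and the anaphase-promoting complex then marks securin and cyclin B for destruction so that sister chromatids part. Most of these genes are switched on together late in the cell cycle, which makes their RNA a usual sign of dividing cells in a tissue. In a resting lymph node the dividing cells are mainly those of germinal centres.

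Of the 52 measured genes, 48 were higher in DLBCL than in healthy nodes and none was lower, by limma at an adjusted p under 0.05 over all probesets. Over all genes 19.9% were higher and 14.9% lower by the same rule. The median log2 difference (DLBCL minus healthy) was 1.35, a 2.55-fold change, against 0.06 over all genes. A rise of more than 2-fold was found for 36 of the 52, against 1.93% of all genes. With RIN as a covariate 7 of the 52 kept an adjusted p under 0.05: BUB1B, CENPF, KIF15, KIF18A, KIF23, NEK2 and PLK4. Calls fell throughout, to 0.668% of all genes higher and 1.19% lower. The median difference was then 1.55, and the median standard error was 0.55 instead of 0.26.

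**Figure D1:**
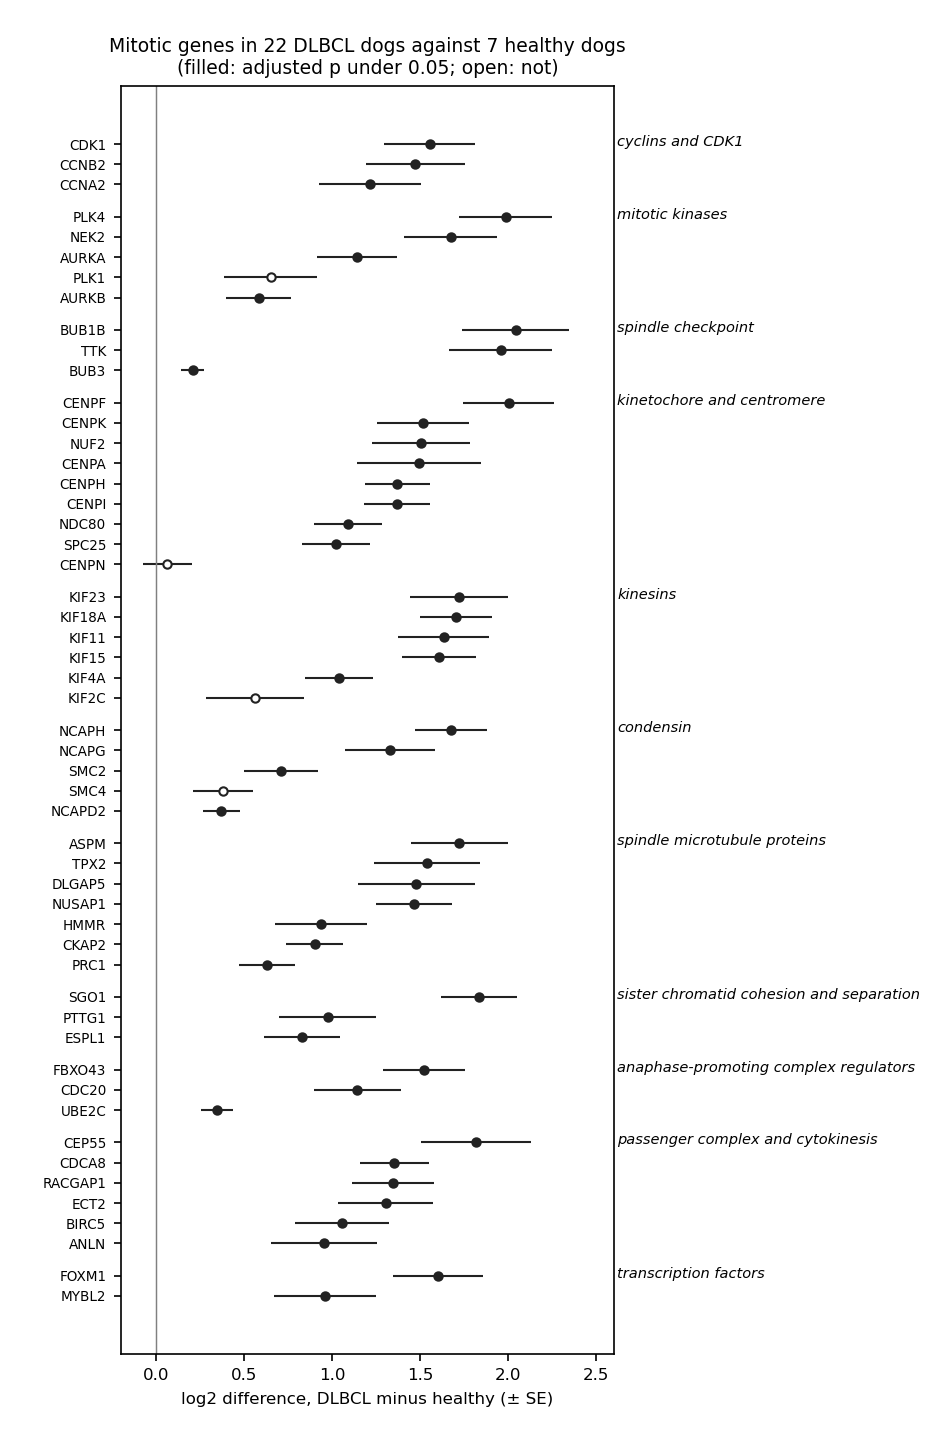
Log2 difference (DLBCL minus healthy, ± SE) of the 52 measured genes in 22 DLBCL and 7 healthy dogs, grouped by role. All 52 points lie right of 0, and the 4 open points (PLK1, CENPN, KIF2C and SMC4) did not reach an adjusted p under 0.05.

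Among the cyclins and CDK1, all 3 measured genes rose. CDK1, the kinase that starts mitosis, had log2 levels of 8.44 to 10.39 in healthy dogs (median 9.68), 10.42 to 11.84 in naïve dogs (median 11.24) and 9.51 to 12.06 in relapsed dogs (median 10.94). All 16 naïve dogs and 4 of 7 relapsed dogs lay above every healthy dog. The difference between DLBCL and healthy nodes was 1.55 ± 0.26 (SE, adjusted p = 3.23e-05). CCNA2, cyclin A2, was at 7.32 to 9.92 in healthy, 9.22 to 11.13 in naïve and 8.60 to 10.62 in relapsed dogs. Its groups overlapped more, with 10 naïve and 3 relapsed dogs above all healthy ones, and the difference was 1.21 ± 0.29 (adjusted p = 0.0018).

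Of the 5 mitotic kinases 4 rose. PLK4, which sets the number of centrioles, was at 5.39 to 7.35 in healthy dogs (median 6.33), 7.56 to 9.36 in naïve dogs (median 8.27) and, with a median of 7.83, from 6.89 to below the highest naïve dog in relapsed dogs. No naïve dog overlapped a healthy one, and the difference of DLBCL from healthy nodes was 1.99 ± 0.26 (adjusted p = 1.68e-06). AURKB, the Aurora kinase of the chromosomal passenger complex, differed least by its brightest probeset, at 0.58 ± 0.18 (adjusted p = 0.0155). Its second probeset, of about the same brightness, gave 0.85 ± 0.18 (adjusted p = 0.00068). PLK1, a kinase of mitotic entry and spindle assembly, was at 7.05 to 8.24 in healthy, 7.28 to 9.31 in naïve and 6.80 to 9.24 in relapsed dogs. With a difference of 0.65 ± 0.26 it did not pass over all DLBCL dogs (adjusted p = 0.0593). In the naïve dogs alone it was 0.75 ± 0.28 above healthy nodes (adjusted p = 0.0385).

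The spindle checkpoint held both the largest and one of the smallest differences. BUB1B, or BubR1, an inhibitor of the anaphase-promoting complex, was at 6.86 to 9.97 in healthy dogs (median 8.79), 9.76 to 11.39 in naïve dogs (median 10.82) and 8.78 to 11.22 in relapsed dogs (median 10.71). DLBCL exceeded healthy nodes by 2.04 ± 0.30 (adjusted p = 8.12e-06), a 4.12-fold change, and 18 of the 23 tumour samples lay above all healthy dogs. TTK, the checkpoint kinase Mps1, differed by 1.96 ± 0.29 (adjusted p = 8.42e-06). For BUB3, a partner of BubR1, the brightest probeset was at 12.86 to 13.27 in healthy and 13.09 to 13.62 in DLBCL dogs, a difference of 0.21 ± 0.07 (adjusted p = 0.0172). The next BUB3 probesets by brightness differed by 1.04 ± 0.14 and 0.62 ± 0.10, each with 21 of 22 DLBCL dogs above all healthy ones, and the dimmest one did not pass (0.27 ± 0.16, adjusted p = 0.208).

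Of the 9 kinetochore and centromere genes 8 rose. CENPF, a protein of the outer kinetochore, was at 6.82 to 9.27 in healthy dogs (median 8.22), 9.52 to 11.39 in naïve dogs (median 10.13) and 9.25 to 11.41 in relapsed dogs (median 9.84). All naïve and 6 of 7 relapsed dogs lay above every healthy dog, and the difference was 2.00 ± 0.26 (adjusted p = 1.06e-06). The microtubule-binding NDC80 complex was represented by NUF2, NDC80 and SPC25, which rose by 1.50 ± 0.28, 1.09 ± 0.19 and 1.02 ± 0.19. CENPN, which binds the centromeric nucleosome, gave differing readings by probeset. Its brightest probeset was at 10.66 to 11.20 in healthy and 10.30 to 11.57 in DLBCL dogs, a difference of 0.06 ± 0.14 (adjusted p = 0.751). The next brightest was at 6.13 to 7.97 in healthy and 7.61 to 9.74 in DLBCL dogs, with 21 of 22 DLBCL dogs above all healthy ones and a difference of 1.69 ± 0.21 (adjusted p = 6.81e-07). Another gave 1.58 ± 0.23 (adjusted p = 4.35e-06), and the dimmest 0.15 ± 0.08 (adjusted p = 0.146). Across the 22 DLBCL dogs these probesets correlated with the mean of the other members at 0.31, 0.90, 0.91 and −0.19 in that order. Which transcripts each of them detects was not tested.

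Among the kinesins, motor proteins that move along microtubules, 5 of 6 rose. KIF23, the motor of the central spindle, was at 7.72 to 10.32 in healthy, 9.55 to 11.49 in naïve and 9.26 to 11.28 in relapsed dogs. The difference was 1.72 ± 0.28 (adjusted p = 2.31e-05), and 14 naïve and 5 relapsed dogs lay above all healthy ones. KIF18A, which limits the swings of chromosomes at the metaphase plate, and KIF11, which pushes the spindle poles apart, rose by 1.70 ± 0.20 and 1.63 ± 0.26. KIF2C, a depolymerase that corrects wrong attachments, was at 6.95 to 7.97 in healthy and 6.48 to 9.64 in DLBCL dogs by its brightest probeset. That difference, 0.56 ± 0.28, did not pass (adjusted p = 0.125), whereas a second probeset gave 1.03 ± 0.18 (adjusted p = 7.5e-05). Both remaining KIF2C probesets were dim, and their differences of 0.13 and 0.14 did not pass.

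Of 5 genes of condensin, the complex that compacts mitotic chromosomes, 4 rose. NCAPH, the kleisin subunit of condensin I, was at 7.65 to 9.07 in healthy dogs (median 8.21), 9.33 to 10.75 in naïve dogs (median 9.98) and 8.54 to 10.11 in relapsed dogs (median 9.68). It rose by 1.68 ± 0.21 (adjusted p = 4.53e-07), with all naïve and 5 of 7 relapsed dogs above every healthy dog. NCAPG, another condensin I subunit, rose by 1.33 ± 0.26 on its brightest probeset and by 0.48 to 2.04 on its others, which all passed. Of the ATPase subunits that both condensins share, SMC2 rose by 0.71 ± 0.21 (adjusted p = 0.0095), and SMC4, at 0.38 ± 0.17, did not pass (adjusted p = 0.0882). The second SMC4 probeset, at 0.45 ± 0.14, passed (adjusted p = 0.0127), and the second SMC2 probeset, whose levels stayed within the range of the control tags described below, did not (0.08 ± 0.09). NCAPD2 rose by 0.37 ± 0.10 (adjusted p = 0.0072) on its brightest probeset and by 0.86 and 1.15 on its other probesets.

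All 7 spindle microtubule proteins rose. ASPM, which focuses spindle poles, was at 5.96 to 8.51 in healthy dogs (median 7.34), 8.48 to 9.91 in naïve dogs (median 8.95) and 7.83 to 9.92 in relapsed dogs (median 8.82). Its difference was 1.72 ± 0.28 (adjusted p = 2.07e-05). TPX2, an activator of Aurora A, and NUSAP1, a microtubule bundler, rose by 1.54 ± 0.30 and 1.47 ± 0.22. PRC1, the crosslinker of the central spindle, differed least, by 0.63 ± 0.16 (adjusted p = 0.0027). HMMR, DLGAP5 and NUSAP1 each had 1 dimmer probeset that did not pass, with differences of 0.14, 0.25 and 0.12.

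SGO1 and FBXO43 were the members with no overlap at all: every DLBCL dog lay above every healthy dog, as it did for 0.549% of all genes. The members were chosen with earlier results of these data known, so this separation is a description and no independent result. The lowest healthy dogs of both genes lay close to the highest of the control tags described below. SGO1, or shugoshin, guards centromeric cohesion until anaphase. It was at 4.57 to 6.42 in healthy dogs by dog averages (median 5.03), 6.47 to 7.90 in naïve dogs (median 7.44) and 6.35 to 7.64 in relapsed samples (median 6.97). The 1 relapsed sample below the highest healthy dog was sample 12, whose dog is above it once samples 11 and 12 are averaged. DLBCL exceeded healthy nodes by 1.83 ± 0.22 (adjusted p = 2.97e-07). PTTG1, or securin, and ESPL1, the separase that it restrains, rose by 0.97 ± 0.28 and 0.83 ± 0.22 (adjusted p = 0.0072 and 0.00396).

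FBXO43, or Emi2, is an inhibitor of the anaphase-promoting complex best known from the arrest of eggs in meiosis. It was at 4.68 to 5.39 in healthy dogs (median 4.94), 5.54 to 7.94 in naïve dogs (median 6.39) and 5.69 to 7.01 in relapsed dogs (median 6.56). The lowest of all tumours was thus above the highest healthy dog, and the difference was 1.52 ± 0.23 (adjusted p = 1.07e-05). CDC20, the activator of the complex, rose by 1.14 ± 0.25 (adjusted p = 0.000633). UBE2C, its ubiquitin-conjugating enzyme, rose by 0.35 ± 0.09 (adjusted p = 0.00413) on its brightest probeset. Both other UBE2C probesets also passed, but their mean levels (4.29 and 3.76) lay below the highest tag control, so that no size is given for them.

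All 6 genes of the passenger complex and of cytokinesis rose. CEP55, which brings the abscission machinery to the midbody, was at 5.32 to 8.03 in healthy dogs (median 6.91), 7.73 to 9.24 in naïve dogs (median 8.67) and 6.43 to 9.42 in relapsed dogs (median 8.03), and its difference was 1.82 ± 0.31 (adjusted p = 4.96e-05). CDCA8 and BIRC5, or borealin and survivin of the passenger complex, rose by 1.35 ± 0.20 and 1.06 ± 0.27. ANLN, the anillin of the contractile ring, was at 3.58 to 5.54 in healthy dogs, with a mean of 4.43, below the highest of the 17 tag controls without a canine target (4.56). Its measured difference of 0.96 ± 0.30 (adjusted p = 0.0152) was therefore read near background and was not ranked by size against the other genes. The second ANLN probeset, of about the same brightness, gave 0.70 ± 0.15 (adjusted p = 0.00055). Both transcription factors of late cell cycle genes rose, FOXM1 by 1.60 ± 0.26 (adjusted p = 1.95e-05) and MYBL2 by 0.96 ± 0.29 (adjusted p = 0.0113).

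**Figure D2:**
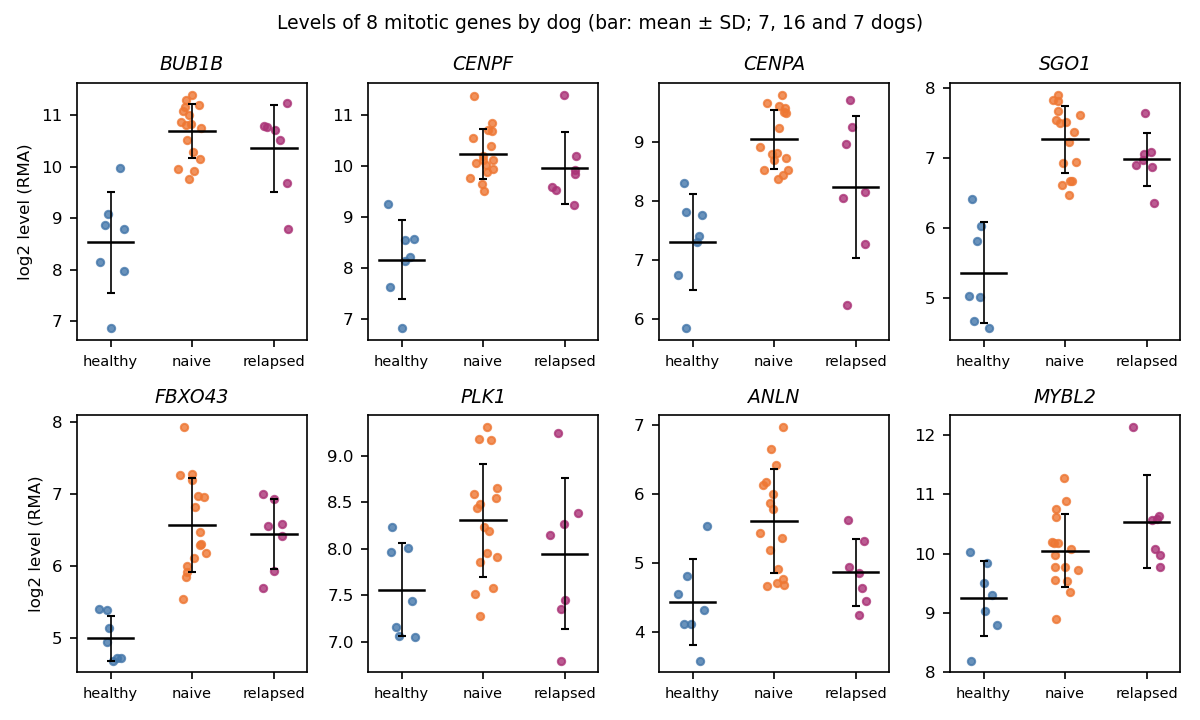
Log2 levels (RMA) of 8 of the genes in healthy, naïve and relapsed dogs, 1 point a dog, with the mean ± SD of 7, 16 and 7 dogs. SGO1 and FBXO43 separate naïve from healthy dogs without overlap, PLK1 and ANLN overlap broadly, and 1 relapsed dog stands at 12.14 for MYBL2.

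Naïve and relapsed dogs were next compared separately with the same 7 healthy dogs, so that these comparisons share their controls. In naïve dogs 49 of the 52 genes were higher and none lower, where 19.9% of all genes were higher and 15.1% lower. In relapsed dogs 34 were higher and none lower, where 10.8% of all genes were higher and 8.96% lower. The median difference was 1.46 in naïve and 1.07 in relapsed dogs. For 13 of the genes every naïve dog lay above every healthy dog (1.75% of all genes), and for 1, FBXO43, every relapsed dog did (2.55% of all genes). Both DLBCL groups lost most calls with RIN as a covariate, to 20 of 52 in naïve and 3 of 52 in relapsed dogs, where 1.26% and 0.172% of all genes were higher. The median differences were then 1.70 and 1.27. Without healthy dog 1 the counts were 46 and 29, against 17.2% and 8.70% of all genes.

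The direct test of relapsed against naïve DLBCL called none of the 52 genes and none (0%) of all genes at an adjusted p under 0.05. At an unadjusted p under 0.05 it gave 8 of the 52, against 5.51% of all genes. The difference (relapsed minus naïve) was below 0 for 49 of the 52 genes, with a median of −0.33 against −0.01 over all genes. NCAPH had the smallest p, at −0.52 ± 0.19 (unadjusted p = 0.013, adjusted p = 0.88). It was followed by ANLN (−0.74 ± 0.29), KIF4A (−0.46 ± 0.19), CENPA (−0.81 ± 0.34) and PLK4 (−0.62 ± 0.26), all with an adjusted p of 0.88 or 0.89. The second ANLN probeset, of about the same brightness, gave −0.24 ± 0.15 (adjusted p = 0.90). CENPA, the histone H3 variant that marks centromeres, ran from 8.36 to 9.80 in naïve dogs and from 6.23 to 9.71 in relapsed dogs, against 5.83 to 8.31 in healthy dogs. ANLN was at 4.67 to 6.97 in naïve and 4.24 to 5.63 in relapsed dogs. KIF4A, a kinesin that carries chromosome arms, was at 8.43 to 9.52 in naïve and 7.74 to 9.33 in relapsed dogs. In all 5 genes the highest relapsed dog lay within the range of the naïve dogs and the lowest relapsed dog below that range.

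The number of genes at an unadjusted p under 0.05 turned on single relapsed dogs. Without sample 18 it was 1, without sample 9 it was 2 and without sample 12 it was 3, whereas without sample 4 it was 28. The median difference over the 52 genes was −0.22 without sample 18 and −0.52 without sample 4. By their brightest probesets, the 3 genes with a difference above 0 were MYBL2 (0.49 ± 0.29), CENPN (0.11 ± 0.14) and KIF2C (0.05 ± 0.29). The other CENPN probesets gave −0.39, −0.25 and 0.15, and the other KIF2C probesets −0.22, −0.19 and −0.17. With the mean of all probesets of a gene, 1 of the 52 lay above 0. In the dog sampled in both states, relapsed sample 12 was lower than naïve sample 11 for 51 of the 52 genes, by a median of 0.75 log2 units, which is 1 pair without a replicate.

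The mean log2 level of the 52 genes on an array was used to order the nodes. It was 8.35 ± 0.54 (SD, n = 7) in healthy, 9.68 ± 0.36 (SD, n = 16) in naïve and 9.35 ± 0.57 (SD, n = 7) in relapsed dogs. Since the genes were chosen with results of these data known, no test was made of this mean. Healthy dogs ran from 7.51 to 9.19, naïve dogs from 9.08 to 10.25 and relapsed dogs from 8.59 to 10.20. In 19 of 22 DLBCL dogs, 15 of 16 naïve and 4 of 7 relapsed, the mean lay above that of every healthy dog. The 4 arrays of healthy dog 1 had an SD of 0.09, so that neighbours in the order closer than this differed by less than the spread of repeat arrays of 1 dog.

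**Figure D3:**
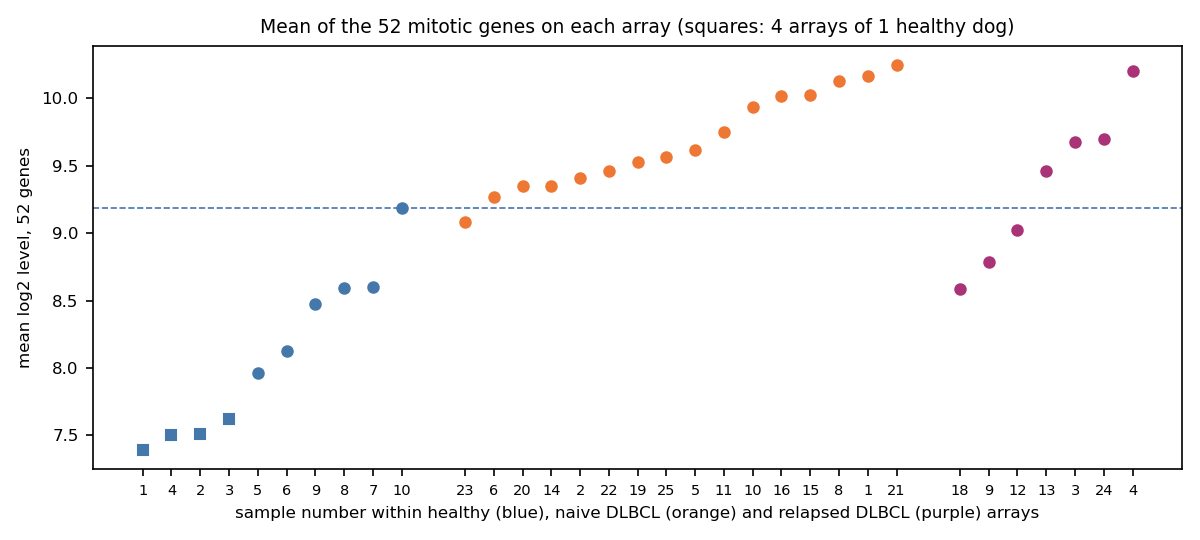
Mean log2 level of the 52 genes on each of the 33 arrays, ordered within healthy, naïve and relapsed arrays, with sample numbers on the horizontal axis, squares for the 4 arrays of healthy dog 1 and a dashed line at the highest healthy dog (9.19). Naïve sample 23 and relapsed samples 18, 9 and 12 lie below the line.

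At the low end of the tumours were relapsed samples 18 (8.59), 9 (8.78) and 12 (9.03) and naïve sample 23 (9.08). The next was naïve sample 6 at 9.27. At the high end were naïve sample 21 (10.25), relapsed sample 4 (10.20) and naïve samples 1 (10.16) and 8 (10.13), all between 10.13 and 10.25. Relapsed dogs thus held the bottom 3 places and a place among the top ones. With the mean of all probesets of each gene, samples 4 and 21 changed places at the top. Sample 18 was the lowest of the 23 tumour arrays for 32 genes and sample 9 for 11, and sample 21 was the highest for 14 genes and sample 4 for 11. Days since the last treatment were 76, 32 and 152 in samples 18, 9 and 12, and 13, 82, 123 and 672 in samples 24, 3, 13 and 4, whose means were 9.70, 9.67, 9.46 and 10.20.

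The healthy nodes were not alike. Healthy dog 1 had the lowest mean of the 7, at 7.51, and was the lowest healthy dog for 42 of the 52 genes. Over all 52 genes it lay a median of 0.99 below the average of the other healthy dogs. Healthy sample 10 was the highest, at 9.19, above 4 of the 23 tumour arrays. Healthy dog 1 is also the healthy dog whose RIN lay within the tumours' range. Against it alone the DLBCL mean was 2.08 higher. A fit with it as the only healthy dog, where its spread is assumed to be that of the DLBCL dogs, called 36 of the 52 genes and 2.82% of all genes higher, and with 1 dog it is no test of healthy nodes. Leaving it out, 45 of the 52 and 17.0% of all genes were higher in DLBCL, and the module mean of the remaining 6 healthy dogs was 8.49 ± 0.43 (SD). Dog 1 further had the highest mean of 11 macrophage markers in the healthy group, 12.09, where the median healthy dog was at 10.19, and the lowest mean of the T-cell markers.

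**Figure D4:**
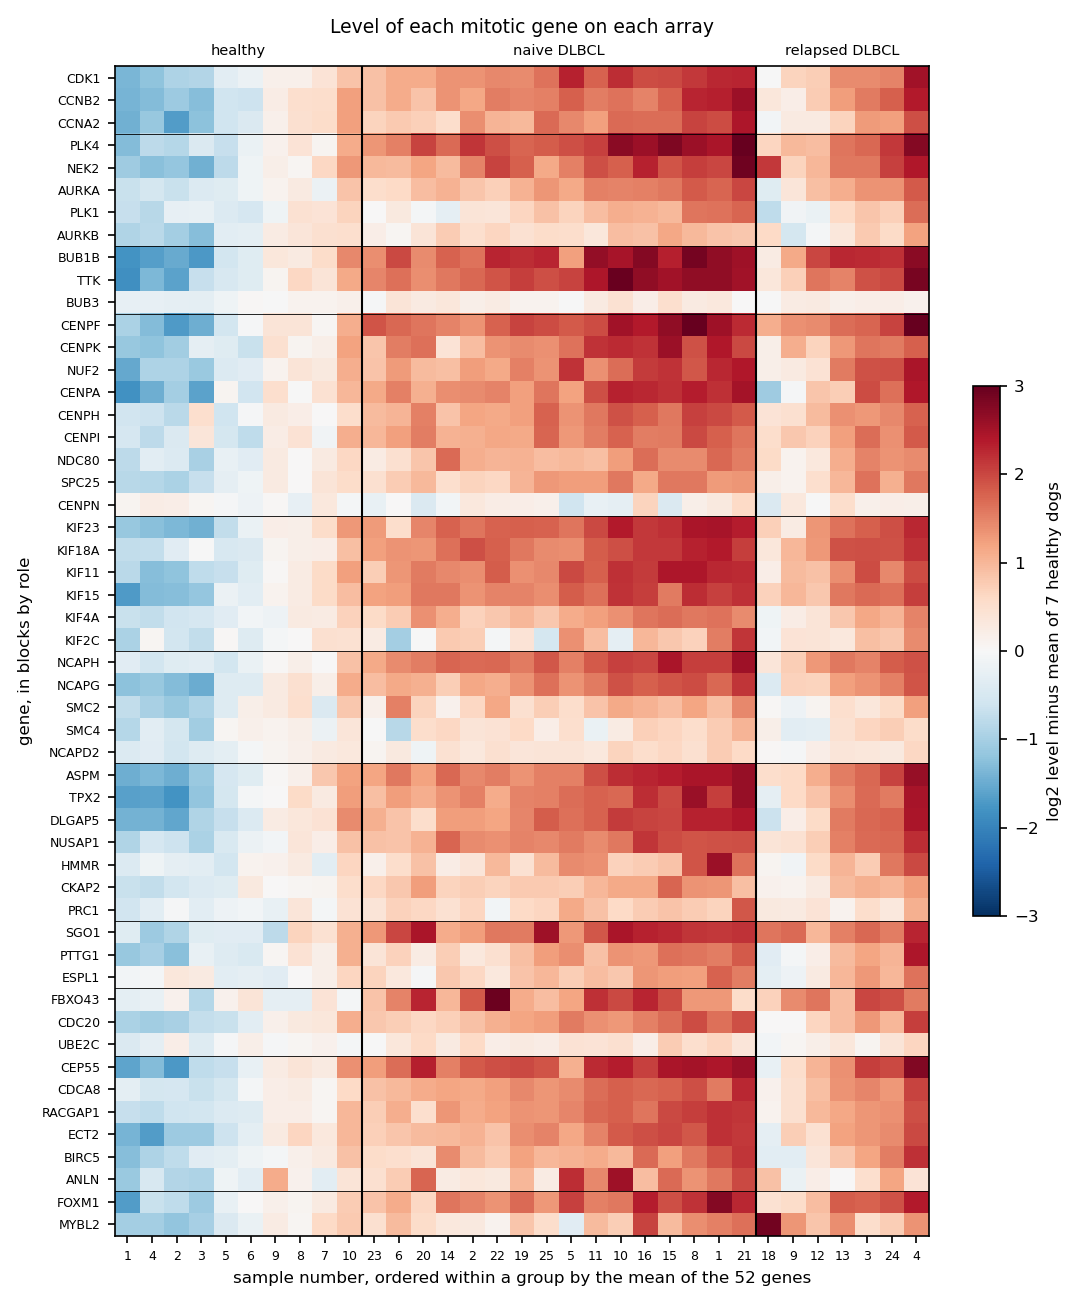
Level of each of the 52 genes on each array as the log2 difference from the mean of the 7 healthy dogs (colour), with genes in blocks by role and arrays ordered as in the plot of means. Most rows darken together from left to right within a group, while BUB3 and CENPN stay pale and FBXO43 and MYBL2 follow another order.

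Across the 22 DLBCL dogs most of the genes rose and fell together. Each gene was correlated with the mean of the other 51, as a description over tumours that share array processing and tissue makeup. The median Pearson r was 0.90, and 41 of the 52 genes exceeded 0.7. Among the 15063 other genes the median r with the mean of the 52 was 0.02, and 1.96% exceeded 0.7. In the 16 naïve dogs alone the median was 0.83, with 40 genes over 0.7. ASPM (0.96), CDCA8 (0.96) and AURKA, the spindle pole kinase (0.96), followed the other members most closely.

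The genes that least followed the others were MYBL2 (r = −0.03), FBXO43 (0.13), BUB3 (0.23), CENPN (0.31), ANLN (0.47) and SGO1 (0.51). Each value is that of the brightest probeset. The other BUB3 probesets had r of 0.84, −0.16 and 0.20, and the other CENPN probesets 0.90, 0.91 and −0.19. FBXO43 and SGO1 therefore exceeded healthy nodes in every DLBCL dog and yet ranked the tumours differently from the rest. Both were dim in healthy dogs, whose lowest values, 4.68 and 4.57, lay just above the highest tag control (4.56). FBXO43 was highest in sample 22 (7.94) and lowest in sample 21 (5.54), the tumour with the highest mean of the 52 genes. MYBL2 was highest in sample 18, at 12.14, the tumour with the lowest mean, and the next tumour was at 11.28. Without sample 18 its r was 0.42 over 21 dogs, and it was 0.67 in the naïve and 0.96 in the healthy dogs. The second MYBL2 probeset was also highest in sample 18, at 10.89 against 10.13 in the next tumour. Relapsed minus naïve, MYBL2 was 0.22 ± 0.27 without that sample.

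**Figure D5:**
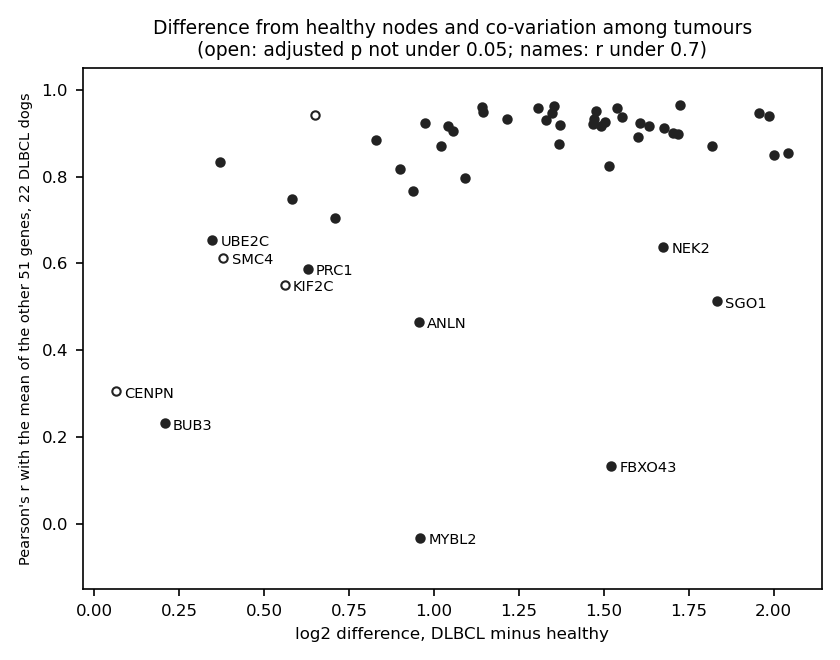
Log2 difference of each gene (DLBCL minus healthy, horizontal) against its Pearson correlation with the mean of the other 51 genes across 22 DLBCL dogs (vertical), with genes under 0.7 named. Most genes lie above 0.7, while BUB3, CENPN, KIF2C, PRC1, SMC4 and UBE2C combine a small difference with an r under 0.7. FBXO43 (0.13) and SGO1 (0.51) combine a large difference with a low correlation.

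Among non-members, the 10 genes most like the mean of the 52 across the 22 DLBCL dogs, by Pearson r, were KIFC1 (0.96), KIF22 (0.95), LOC487476 (0.95), LOC485338 (0.94), CDCA3 (0.94), CKAP2L (0.94), CENPT (0.94), INCENP (0.94), ERCC6L (0.93) and RFC3 (0.93). The mean of 18 S phase genes, such as the MCM helicase, followed the mean of the 52 at r = 0.89 over 22 DLBCL dogs, and at 0.82 without the 2 dogs farthest from the median. The means of B-cell, T-cell, macrophage, stroma and germinal centre markers had r of −0.09, −0.07, −0.09, −0.09 and 0.10 with it. Sample 18, the lowest tumour, had the highest mean of 11 stroma markers (11.19), and sample 5, the tumour low in B-cell markers, stood 13th from the bottom at 9.61. Without samples 5 and 18, 49 of the 52 genes were higher in DLBCL, against 22.6% of all genes.

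RIN and age were related to the genes within DLBCL, where all nodes were tumours. No gene of the 52 had a RIN slope with an adjusted p under 0.05, against 0.43% of all genes. At an unadjusted p under 0.05 there were 21 of the 52, against 10.6% of all genes, and 47 slopes were above 0, with a median of 0.66 log2 units per RIN unit. Without samples 5 and 18 the number was 3 and the median slope 0.37. The lowest tumour, sample 18, had a RIN of 9.1. For age, none of the 52 and none (0%) of all genes passed, and 2 of the 52, KIF18A and UBE2C, had an unadjusted p under 0.05, against 6.69% of all genes.

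Other genes of the same machinery were read from lists of related complexes. Of 22 measured kinetochore proteins outside the 52, 17 rose in DLBCL and none fell. DSN1, of the MIS12 complex, rose most (1.69 ± 0.19, adjusted p = 1.81e-07), and CENPM was at −0.19 ± 0.22 (adjusted p = 0.541). Of 27 centrosome and spindle assembly genes 20 rose and 2 fell, from GTSE1, a regulator of microtubule stability (2.10 ± 0.34, adjusted p = 2.07e-05), to NUMA1, a spindle pole protein (−0.38 ± 0.09, adjusted p = 0.0016). Of 11 genes of the switch into mitosis 9 rose, from MASTL, the Greatwall kinase (1.28 ± 0.20, adjusted p = 1.34e-05), to its substrate ENSA, which did not pass (0.17 ± 0.08, adjusted p = 0.09).

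Of 17 subunits and partners of the anaphase-promoting complex 9 rose and 1 fell, with a median difference of 0.27. The range ran from FBXO5, or Emi1, its inhibitor before mitosis (0.98 ± 0.24, adjusted p = 0.00235), to the core subunit ANAPC2 (−0.37 ± 0.10, adjusted p = 0.00376). Of 14 genes of cohesin, the ring that holds sister chromatids, and its regulators, 4 rose and 4 fell, near the 19.9% and 14.9% of all genes for so short a list. CDCA5, or sororin, rose by 1.94 ± 0.23 (adjusted p = 2.48e-07) and the acetyltransferase ESCO2 by 1.51 ± 0.22, whereas its relative ESCO1 fell by 0.77 on the log2 scale (SE 0.16, adjusted p = 0.000586). Of 12 MuvB and pocket protein genes, the complexes that hold late cell cycle genes silent or start them, 4 rose and none fell, from RBL1 (0.81 ± 0.14, adjusted p = 4.34e-05) to MYBL1 (−0.36 ± 0.22, adjusted p = 0.217). Of 18 S phase genes 16 rose, from CDC6, a loader of the helicase (1.74 ± 0.27, adjusted p = 1.46e-05), to UHRF1, which did not pass (0.14 ± 0.07, adjusted p = 0.146). None of these genes passed in relapsed against naïve dogs.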

How the data were processed

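Lymph node RNA of 33 arrays (Affymetrix Canine Genome 2.0) was analysed. The deposited values were on the log2 scale. The authors had made them by RMA, which corrects background, gives all arrays 1 shared distribution and summarises each probeset. This compresses differences of dim probesets and removes any overall shift between nodes. The submitters' processing notes name Affymetrix Expression Console, RMA and Partek. Depth does not apply to arrays, and the number of dogs limits the precision.

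Of 43035 probesets, 29264 carried 1 gene symbol, 439 several and 13332 none, which gave 15115 genes. Where a gene had several probesets, the brightest one on average stood for it. Groups and the dog behind each array came from the labels. Arrays of one dog were averaged, DLBCL was compared with healthy nodes in 1 fit, and the 3 groups were compared in another. Moderated tests (limma 3.58.1, R 4.3.3) were run on every probeset with Benjamini-Hochberg adjustment, and all p-values are two-sided. RIN and age entered as linear terms within DLBCL. Means, correlations and plots were made with Python 3.11.15, numpy 2.4.6, scipy 1.17.1, pandas 2.3.3 and matplotlib 3.10.9. The code was tested on simulated data. Within a group each dog is 1 replicate.

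The member genes, the related lists and the tests were chosen with earlier results of these data known. Genes given in full were the members of largest and smallest difference in each role, every member that did not pass, the 5 of smallest p between DLBCL groups, members whose probesets differed in call, the extremes of each related list, and the genes most and least like the mean of the 52. Others named as examples, such as NUF2, NDC80, SPC25, KIF18A, KIF11, NCAPG, TPX2, CDCA8 and BIRC5, were picked for their roles after the values were seen. Alternatives covered arrays as samples, the dog as a random block, RIN in the model, leaving out the dimmest 25% of probesets, other scalings, the mean of probesets, a fold limit, one-way ANOVA and leaving out dogs. The 2 extraction batches are not assigned to samples in the labels and were not tested. Sample numbers were not taken to pair DLBCL with healthy nodes.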

Additional observations from a re-analysis of the deposited data

Results flagged for a closer look

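MYBL2 in the relapsed dogs was the 1 case, of 106 groups examined over the 52 genes and their mean, in which an end value stood far from the rest. DLBCL sample 18 was at a log2 level of 12.14 and the next relapsed dog at 10.64. A gap of this kind arises by chance in about 1 in 20 groups, whereas 0.943% of the groups had one here. The groups were not independent, since they shared the same dogs and most genes varied together. The same dog had the lowest mean of the 52 genes among the tumours.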

How the results depend on the processing

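No member was called lower, at an adjusted p under 0.05, in DLBCL, naïve or relapsed dogs than in healthy dogs under any alternative. RIN as a covariate lowered the number of higher genes from 48 to 7 in DLBCL, from 49 to 20 in naïve and from 34 to 3 in relapsed dogs, while the median differences were no smaller. Healthy and DLBCL dogs differ in RIN almost without overlap, so RIN and group can hardly be told apart in this fit. Under every other alternative the 3 counts stayed within 1.5 times their value. Leaving out 1 healthy dog at a time gave 45 to 49, 46 to 49 and 29 to 39. In DLBCL against healthy dogs the brightest CENPN probeset changed sign, to −0.0469 with RIN as a covariate and to −0.0732 against healthy dog 1 alone. In naïve against healthy dogs the smallest member difference fell to −0.0951 with RIN as a covariate. It was also below 0 with arrays as separate samples and without healthy dog 6 or 8. Relapsed against naïve DLBCL gave 0 genes under each alternative. At an unadjusted p under 0.05 it gave 8, and 17 with the dog as a random block, 3 without the dog in both groups, 1 without DLBCL samples 5 and 18, and 1 to 28 without 1 relapsed dog. The genes related to RIN within DLBCL at that threshold went from 21 to 3 without samples 5 and 18. In the order of tumours by the mean of the 52 genes, sample 21 went from rank 23 (the highest) to 22 with the mean of all probesets, behind sample 4, and sample 18 stayed lowest. The cause of these changes was not tested.

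With the sample number as a replicate block, over the arrays whose number occurs in both groups, 49 genes were higher, and 50 on the same arrays without the block, a comparison added after the data were seen. Same-numbered arrays deviated together by correlations of −0.145 to 0.156, so the pairing is one of number only. The planned search of promoters for motifs was not run. Precision is limited by 7 healthy and 7 relapsed dogs, and for dim probesets such as ANLN by signal near background.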

Other observations

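Within the healthy group the 52 genes also varied together. The median r of a gene with the mean of the others was 0.95 over 7 healthy dogs, and 47 of the 52 exceeded 0.7, as a description over few dogs that share array processing. The healthy mean of the 52 had r = −0.53 with RIN over 7 dogs and 0.05 without healthy dog 1. Variation between dogs was as wide in healthy nodes as in tumours: the median SD over the 52 genes was 0.614 in 7 healthy and 0.565 in 22 DLBCL dogs, against 0.237 among the 4 arrays of healthy dog 1.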
